A study of Mus musculus with 12 samples.

Results

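The 10 genes described here, which earlier work lists as targets of p53, were followed across the 12 arrays of the study. They were chosen as lying outside the well known target groups of cell cycle arrest, apoptosis and repair. The division is not strict, since Aen is named for a role in apoptosis and the study cites work that links Phlda3 to apoptosis. The 10 genes are Phlda3, Zmat3, Aen, Ak1, Abhd4, Slc19a2, Dcxr, Def6, Wrap53 and Steap3. Each was found by a probe set annotated with exactly 1 gene symbol, so that all 10 were measured. There were 14860 genes with such a probe set and 16755 probe sets in all. The RNA came from murine embryonic fibroblasts (MEFs), connective tissue cells of embryos at day 13.5 on a C57Bl6J background, taken from embryos with a whole-body Pak1 knock-out or from wildtype embryos. All cells were immortalized with the T antigen of SV40, controls included. The groups were Pak1 knock-out MEFs given ionizing radiation (KO-IR), untreated Pak1 knock-out MEFs (KO), wildtype MEFs given ionizing radiation (WT-IR) and untreated wildtype MEFs (WT), with 3 arrays each. The total dose, the interval before harvest and the number of embryos or cell lines behind a genotype are not stated in the labels or methods, so knockout and line cannot be told apart in a comparison of KO with WT cells. Whether the replicates were separate cultures is also not given beyond the words biological rep, so each p-value covers only the variation among the arrays used, and their small number limits the precision.

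The transcription factor p53 is held at a low level in resting cells by Mdm2, and DNA breaks stabilise it so that it binds paired half-sites in DNA and switches on its target genes. The SV40 T antigen binds p53, and it blocks much of this response in the cells that carry it. Ionizing radiation breaks DNA strands and is a standard way to activate p53, and the question put to these genes was whether they differed between Pak1 knockout and wildtype cells, with and without irradiation.

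Values are log2 expression relative to the median of the gene's probe set over the 12 arrays, as the authors deposited them, so a value of 0 is that median and no absolute level can be read. For that reason the fibroblast identity of the cells could be checked only for differences. Of 12 fibroblast markers measured, 3 were higher and 5 lower in KO than in WT cells, where 21.5% of all probe sets were higher and 21.7% lower. The higher ones were Thy1 at 1.29, Col1a1 at 0.80 and Pdgfrb at 0.38. The lower ones were the receptor Pdgfra at -2.33, Prrx1 at -2.10, Col3a1 at -1.14, Col1a2 at -0.56 and Dcn at -0.13. Of the 12, Pdgfra was the one that also passed the interaction (-0.40, adjusted p = 0.0196 by limma). Of 5 epithelial markers, 2 were higher in KO, the keratin Krt19 by 2.76 and Epcam by 0.26 on the log2 scale, while Krt18 (0.06), Cdh1 (-0.05) and Cldn4 (-0.14) did not pass. The mean of the list ran from 0.315 to 0.342 in KO arrays and from -0.263 to -0.235 in WT arrays, a gap made up mostly of Krt19, and the median difference of its genes was 0.06. Of 5 macrophage markers 1 was lower in KO, the receptor Csf1r, at -2.26, while Ptprc, Cd68, Adgre1 and Itgam lay between -0.04 and -0.01 and did not pass. Between KO-IR and WT-IR Csf1r was at -2.37, and Cd68 passed as higher, at 0.31 (adjusted p = 0.003 by limma). The 13 proliferation genes measured averaged from -0.143 to -0.131 in KO-IR arrays and from -0.007 to 0.054 in KO arrays. They averaged from 0.004 to 0.034 in WT-IR arrays and from 0.099 to 0.157 in WT arrays. Single genes went both ways, with 2 higher and 4 lower in KO vs WT (all probe sets 21.5% and 21.7%). In KO-IR vs WT-IR 2 were higher and 8 lower (23.4% and 21.2%). In KO-IR vs KO 0 were higher and 3 lower (3.38% and 2.92%), and in WT-IR vs WT 1 was higher and 5 lower (0.848% and 1.64%). These shifts move with the comparisons below, and their part in the results was not tested. In such bulk RNA, fewer cells of a type and less RNA per cell cannot be told apart. The medians of the arrays lay between -0.0201 and 0.0180.

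The promoters of these genes are one place where p53 could meet them. The search used 18 RefSeq windows of the mouse build GRCm38.p6, each 300 bases with 250 before and 50 after a transcription start. They covered 9 of the 10 genes, and sequence outside them was not searched, so a window without a match does not exclude a site elsewhere. An exact match to the p53 half-site consensus, which is its own reverse complement and so is read on both strands at once, was found in 4 of these windows and in 3 of the 9 genes (33.3%), beside 10 of 28 better described p53 targets (35.7%), 9.55% of the 27025 genes with a window and 8.36% of all 32851 windows. Genes with several starts have more windows in which to match, and a match is a description of the letters and not a site shown to be bound. Windows of Aen, Abhd4 and Wrap53 are shown because they hold the match (half-site in capitals). Those of Phlda3 and Slc19a2, with no full match, belong to the 2 genes with the largest rise under irradiation in knockout cells. The 8 capitals that end the Phlda3 window fit the first 8 positions of the half-site. The window ends there, so the rest was not seen, and this part match is not counted as a half-site. How often other windows end in such a part match was not counted.
Phlda3, chr1:135765835-135766134, plus strand: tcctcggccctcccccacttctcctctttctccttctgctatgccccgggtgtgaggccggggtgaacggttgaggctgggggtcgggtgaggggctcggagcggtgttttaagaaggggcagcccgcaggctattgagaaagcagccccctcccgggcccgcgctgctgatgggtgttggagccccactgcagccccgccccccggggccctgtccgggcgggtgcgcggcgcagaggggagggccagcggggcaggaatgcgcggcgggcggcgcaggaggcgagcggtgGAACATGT
Slc19a2, chr1:164248796-164249095, plus strand: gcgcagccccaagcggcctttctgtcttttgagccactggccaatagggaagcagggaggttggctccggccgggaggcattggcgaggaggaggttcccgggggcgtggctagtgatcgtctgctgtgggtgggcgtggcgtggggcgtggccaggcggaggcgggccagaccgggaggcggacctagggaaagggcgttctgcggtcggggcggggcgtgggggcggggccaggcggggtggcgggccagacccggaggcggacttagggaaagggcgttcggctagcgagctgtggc
Aen, chr7:78895677-78895976, plus strand: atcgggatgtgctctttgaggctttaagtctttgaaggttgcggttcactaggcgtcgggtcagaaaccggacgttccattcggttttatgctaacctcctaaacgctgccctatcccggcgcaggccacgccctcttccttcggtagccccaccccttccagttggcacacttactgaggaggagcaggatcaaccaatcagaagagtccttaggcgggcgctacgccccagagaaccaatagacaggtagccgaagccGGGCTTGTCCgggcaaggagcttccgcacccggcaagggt
Abhd4, chr14:54259033-54259332, plus strand: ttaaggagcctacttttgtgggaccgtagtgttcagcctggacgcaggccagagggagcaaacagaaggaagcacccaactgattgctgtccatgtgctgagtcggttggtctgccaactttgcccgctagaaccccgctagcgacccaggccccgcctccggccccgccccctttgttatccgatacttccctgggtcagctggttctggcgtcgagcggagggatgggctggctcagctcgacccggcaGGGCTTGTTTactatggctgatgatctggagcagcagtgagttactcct
Wrap53, chr11:69580201-69580500, minus strand: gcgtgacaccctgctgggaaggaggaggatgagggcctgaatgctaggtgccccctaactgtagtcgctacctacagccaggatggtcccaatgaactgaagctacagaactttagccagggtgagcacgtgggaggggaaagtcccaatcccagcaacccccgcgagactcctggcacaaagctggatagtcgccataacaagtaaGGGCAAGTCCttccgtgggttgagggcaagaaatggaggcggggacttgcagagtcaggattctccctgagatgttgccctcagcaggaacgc
The half-site began at base 11 after the start in the Aen window, at base 2 in the Abhd4 window and at base -43 in the Wrap53 window. The other Aen window overlaps the one shown and holds the same match. Wrap53 and the p53 gene Trp53 are neighbours on chromosome 11 with 97 bases between them in the RefSeq annotation, and Trp53 itself was not analysed here.

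In Pak1 knockout cells most of these genes went up with irradiation. Between KO-IR and KO, 8 of the 10 genes were higher at an adjusted p under 0.05 by limma and 0 were lower, where 3.38% of all probe sets were higher and 2.92% lower. The median log2 fold change of the 10 was 0.36, beside -0.00 over all probe sets. All 3 KO-IR arrays lay above all 3 KO arrays for the same 8 genes, as they did for 9.39% of all probe sets. A fold change of at least 2 with that adjusted p, the thresholds of the study, was reached by 1 gene, Slc19a2, and by 0.143% of all probe sets. Def6 and Steap3 were the genes that did not pass.

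In wildtype cells 8 of the 10 genes did not pass. Between WT-IR and WT, 1 of the 10 passed as higher and 1 as lower, beside 0.848% of all probe sets higher and 1.64% lower, and the median log2 fold change was -0.07, against -0.03 over all probe sets. All WT-IR arrays lay above all WT arrays for 2 genes, Slc19a2 and Steap3, and below them for 2, Phlda3 and Def6, beside 9.79% and 18.8% of all probe sets. A 2-fold change was reached by 0 of the 10 and by 0.00597% of all probe sets. The difference between the genotypes in their change with irradiation was tested as the interaction (KO-IR minus KO) minus (WT-IR minus WT). It was above 0 for all 10 genes, with a median of 0.44. The median over all probe sets was itself above 0, at 0.02, so a positive sign alone is common. The interaction passed the adjusted p for 5 of the 10, Phlda3, Slc19a2, Aen, Zmat3 and Abhd4, all positive. Beside them, 1.17% of all probe sets passed with a positive interaction and 0.203% with a negative one. Phlda3 alone also had a 2-fold interaction, beside 0.143% of all probe sets.

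**Figure D1:**
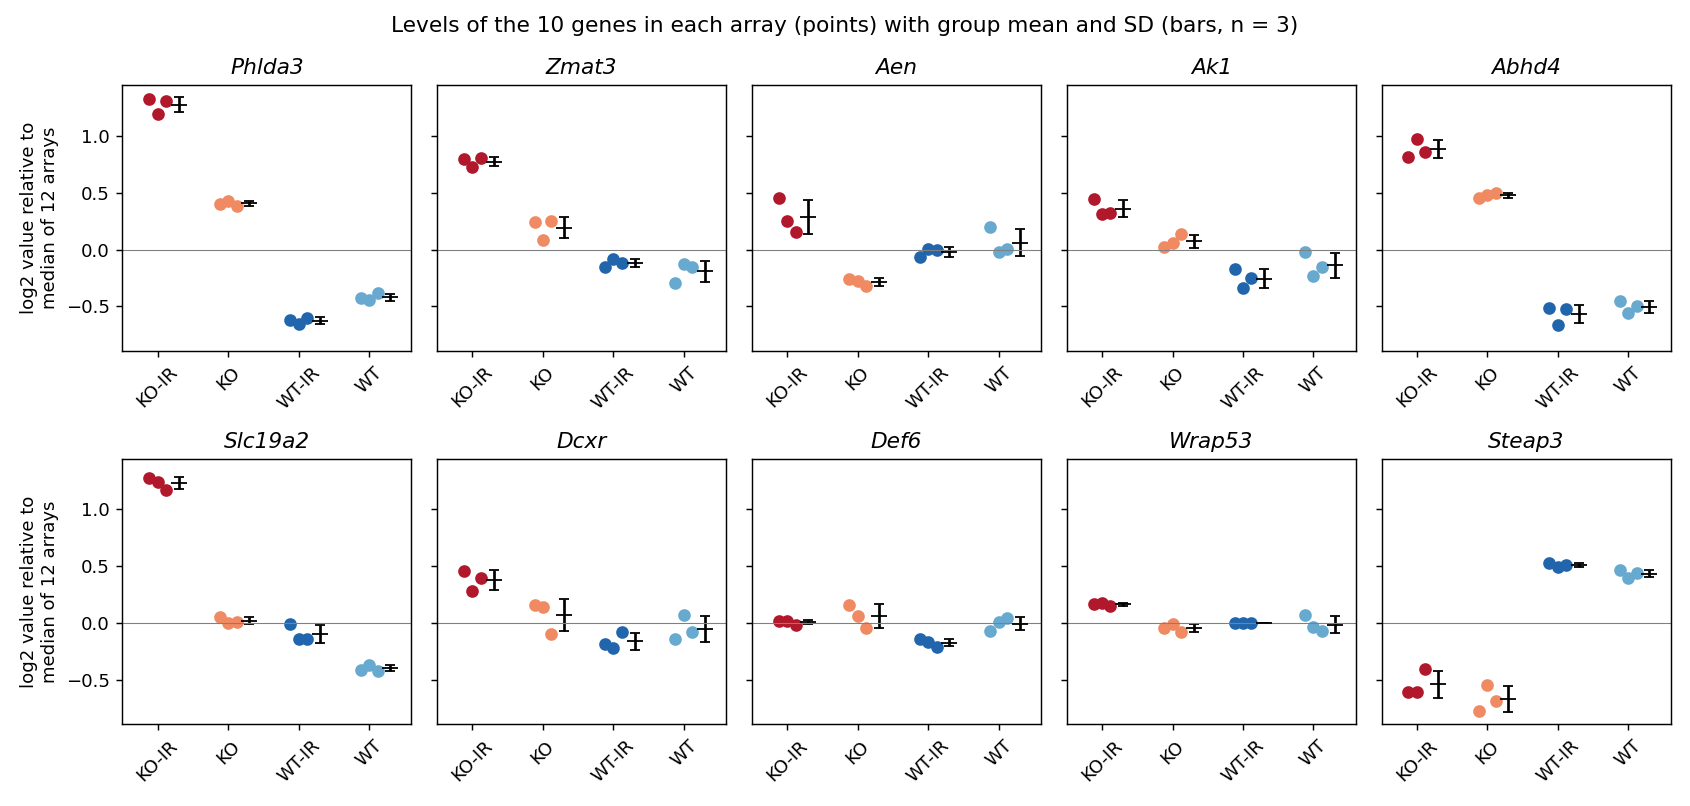
Level of each of the 10 genes in the KO-IR, KO, WT-IR and WT arrays. The y axis is the log2 value relative to the median of the 12 arrays, points are single arrays and the black marks give the group mean and SD (n = 3). The KO-IR arrays of Phlda3 and Slc19a2 sit between 1.17 and 1.32, while the other groups of both genes reach at most 0.43, and Steap3 is split by genotype.

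Phlda3 encodes a small protein with little more than a pleckstrin homology domain, which competes with the kinase Akt for membrane lipids and so restrains Akt. Its values were 1.32, 1.19 and 1.30 in KO-IR, 0.40, 0.43 and 0.38 in KO, -0.62, -0.66 and -0.60 in WT-IR and -0.43, -0.44 and -0.38 in WT arrays. The 4 groups did not overlap, and KO-IR stood highest and WT-IR lowest. The log2 fold change was 0.87 in KO-IR vs KO (standard error 0.041, adjusted p = 2.51e-07 by limma), which placed Phlda3 at rank 31 of 16755 probe sets from the top. In wildtype cells the change went the other way, at -0.21 in WT-IR vs WT (standard error 0.041, adjusted p = 0.0222), so that the interaction was 1.07 (standard error 0.058, adjusted p = 2.59e-06), or 2.11-fold. The small decrease in wildtype cells is the less firm of these values. It did not pass after quantile normalization (adjusted p = 0.0883), with the methods' t-test (adjusted p = 0.0911), or without WT replicate 1 (0.0607), WT replicate 2 (0.0564), WT replicate 3 (0.0983), WT-IR replicate 1 (0.0759) or WT-IR replicate 2 (adjusted p = 0.119).

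Slc19a2, a thiamine transporter of the plasma membrane, had the largest rise of the 10 in irradiated knockout cells. It was at 1.28, 1.24 and 1.17 in KO-IR, 0.055, 0.006 and 0.007 in KO, -0.006, -0.14 and -0.14 in WT-IR and -0.41, -0.37 and -0.42 in WT arrays. The KO-IR arrays stood far above the rest and the WT arrays below it, with KO and WT-IR close to each other but not overlapping. The rise was 2.31-fold in KO-IR vs KO, or 1.21 on the log2 scale (standard error 0.045, adjusted p = 5.08e-08 by limma) and rank 18 of 16755 from the top. Slc19a2 was also the one gene of the 10 that rose in wildtype cells, by 0.30 in WT-IR vs WT (standard error 0.045, adjusted p = 0.00661), rank 119 from the top. That call was lost with the methods' t-test (adjusted p = 0.119), which called 1 probe set in all in this comparison. The rise was larger in knockout cells, with an interaction of 0.91 (standard error 0.064, adjusted p = 1.54e-05).

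Zmat3, also known as Wig1, is a zinc finger protein that binds RNA. Its values were 0.79, 0.72 and 0.80 in KO-IR, 0.24, 0.083 and 0.25 in KO, -0.15, -0.083 and -0.12 in WT-IR and -0.30, -0.13 and -0.15 in WT arrays. Both wildtype groups overlapped, while KO-IR lay above KO and KO above both of them. The log2 fold change was 0.58 in KO-IR vs KO (standard error 0.057, adjusted p = 0.000103 by limma) and 0.07 in WT-IR vs WT, with a 95% interval from -0.05 to 0.20. The interaction was 0.51 (adjusted p = 0.00818), and 0.36 after quantile normalization (adjusted p = 0.0786).

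Aen, the apoptosis enhancing nuclease, was the gene whose difference between the genotypes turned with irradiation. It was at 0.45, 0.25 and 0.16 in KO-IR, -0.26, -0.28 and -0.32 in KO, -0.070, 0.006 and -0.002 in WT-IR and 0.19, -0.018 and 0.002 in WT arrays. Without irradiation all KO arrays lay below all WT arrays, at -0.35 for KO vs WT (standard error 0.073, adjusted p = 0.00193 by limma). Under irradiation all KO-IR arrays lay above all WT-IR arrays, by 0.31 (standard error 0.073, adjusted p = 0.0041, or 0.0673 with the methods' t-test). The rise in KO-IR vs KO was 0.57 (standard error 0.073, adjusted p = 0.000678) and the change in WT-IR vs WT was -0.08, with an interval from -0.24 to 0.08. The interaction was 0.65 (standard error 0.104, adjusted p = 0.00825).

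Abhd4, a lipase that acts on N-acyl phospholipids, was set apart mainly by genotype and rose further with irradiation in knockout cells. Its values were 0.81, 0.97 and 0.86 in KO-IR, 0.45, 0.48 and 0.50 in KO, -0.51, -0.66 and -0.53 in WT-IR and -0.45, -0.56 and -0.50 in WT arrays. Both wildtype groups overlapped, and KO and KO-IR lay above them in that order without overlap. The log2 fold change was 0.40 in KO-IR vs KO (standard error 0.052, adjusted p = 0.000722 by limma) and -0.06 in WT-IR vs WT, with an interval from -0.18 to 0.05. The interaction was 0.47 (adjusted p = 0.00819), and 0.29 after quantile normalization (adjusted p = 0.0515).

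Smaller increases in KO-IR vs KO were seen for 3 genes. Ak1, the adenylate kinase that balances adenine nucleotides in the cytosol, had values of 0.45, 0.32 and 0.32 in KO-IR and 0.022, 0.055 and 0.13 in KO arrays, so that it was higher by 0.29 (standard error 0.064, adjusted p = 0.0200 by limma). Its wildtype groups overlapped, with -0.17, -0.34 and -0.25 in WT-IR and -0.022, -0.24 and -0.16 in WT arrays. Without KO replicate 1 the adjusted p was 0.0815 and without KO replicate 2 it was 0.0642. Dcxr, a reductase of dicarbonyl compounds and L-xylulose, was at 0.46, 0.29 and 0.39 in KO-IR and 0.16, 0.15 and -0.091 in KO arrays, and its difference of 0.31 (standard error 0.079, adjusted p = 0.0399) was close to the threshold. In wildtype cells it was at -0.19, -0.22 and -0.073 in WT-IR and -0.14, 0.073 and -0.079 in WT arrays, which overlapped. Its call was lost with only the groups compared in the fit (adjusted p = 0.109), and without WT replicate 3, any of the 3 KO replicates, WT-IR replicate 1 or 2, or KO-IR replicate 1 or 3, where the adjusted p lay between 0.0547 and 0.114. Wrap53, a scaffold protein that guides telomerase to Cajal bodies, was at 0.17, 0.18 and 0.15 in KO-IR and -0.044, -0.008 and -0.075 in KO arrays, higher by 0.21 (standard error 0.040, adjusted p = 0.00976, or 0.0511 with only the groups compared in the fit). Its values were 0.001, 0.005 and -0.001 in WT-IR and 0.069, -0.031 and -0.072 in WT arrays, so that the WT-IR arrays lay inside the spread of WT. All 3 genes had an interaction above 0 that did not pass the adjusted p. It was 0.41 for Ak1 (adjusted p = 0.0567), 0.42 for Dcxr (adjusted p = 0.128) and 0.20 for Wrap53 (adjusted p = 0.168), so a difference between the genotypes in the change of these genes was not shown. For Ak1 it passed without WT replicate 2 (0.46, adjusted p = 0.0439).

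The methods' t-test on the 6 arrays of KO-IR and KO alone kept 2 of the 8 calls, Phlda3 (adjusted p = 0.0216) and Slc19a2 (adjusted p = 0.0108), and it called 100 of the 16755 probe sets, against 1056 by limma on all 12 arrays. The other 6 genes had the same log2 fold changes there, with adjusted p between 0.0619 and 0.313.

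**Figure D2:**
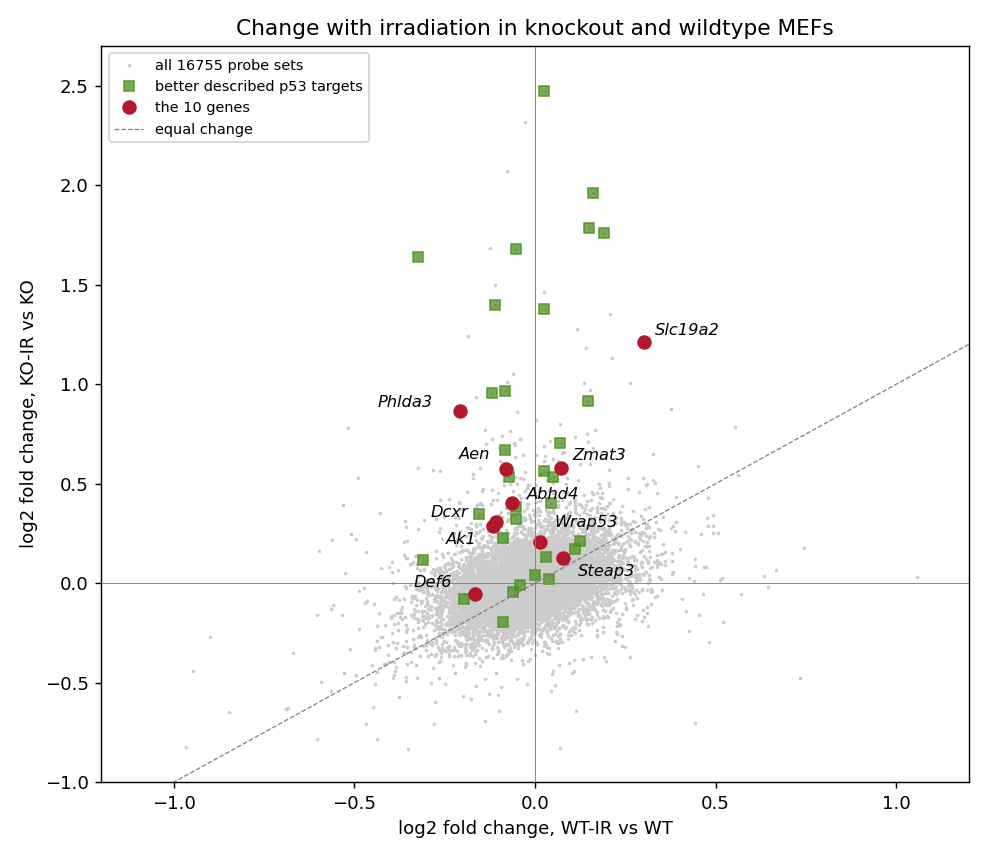
Log2 fold change with irradiation in knockout MEFs (KO-IR vs KO, y axis) against that in wildtype MEFs (WT-IR vs WT, x axis), which share no array. Grey points are all 16755 probe sets, green squares the better described p53 targets and red points the 10 genes, with a dashed line where both changes are equal. All 10 genes lie above that line, from Steap3 and Def6 close to it to Slc19a2 and Phlda3 well above it. The median interaction over all probe sets, 0.02, is also above it.

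Better described p53 targets gave the same pair of comparisons a reference. The list held 35 genes, of which 31 were measured. It covers cell cycle arrest, apoptosis, repair and feedback, but also holds genes outside these groups, such as Lif, Tigar and Dgka. Many genes of the list are named by the study from these samples. Among them are Cdkn1a, Btg2, Trp53inp1, Mdm2, Eda2r, Pmaip1, Tnfrsf10b, Sesn2, Ddit4, Apaf1, Fas and Dgka. The direction of such genes is therefore not independent evidence. The same holds for Phlda3 among the 10. In KO-IR vs KO, 20 of the 31 passed as higher and 1 as lower, beside 3.38% and 2.92% of all probe sets, with a median log2 fold change of 0.53. The 4 with the smallest adjusted p were Btg2, an antiproliferative gene, at 2.48 (adjusted p = 2.07e-10), Trp53inp1, a p53 cofactor of stress, at 1.96, the receptor Eda2r at 1.76 and Mdm2, the ubiquitin ligase of p53, at 1.38. In WT-IR vs WT, 0 of the 31 passed by limma, beside 0.848% of all probe sets higher and 1.64% lower. The smallest adjusted p was 0.0559 for the mTORC1 inhibitor Ddit4, at -0.32. The next 3 were Bid at -0.20, Sfn at -0.31 and Plk2 at 0.13, and at an unadjusted p under 0.05 there were 6 of the 31, beside 18.0% of all probe sets. With the methods' t-test 0 of the 31 passed. The interaction was positive and passed for 17 of the 31, beside 1.17% of all probe sets. Without irradiation 20 of them were higher and 5 lower in KO than in WT cells, beside 21.5% and 21.7% of all probe sets, and between KO-IR and WT-IR 26 were higher and 3 lower, beside 23.4% and 21.2%. Phlda3 and Slc19a2 were thus the only genes of both lists that passed by limma in WT-IR vs WT. With the methods' t-test 0 of the 10 passed there as well, and that test called 1 probe set in all.

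The difference between knockout and wildtype cells was higher under irradiation for the 5 genes that passed the interaction. Between KO-IR and WT-IR, 9 of the 10 genes passed as higher and 1 as lower, but 23.4% of all probe sets were higher and 21.2% lower in this comparison, and the median log2 fold change was 0.58 beside 0.01 over all probe sets. The arrays did not overlap for the same 10 genes, 9 above and 1 below, beside 27.3% and 24.5% of all probe sets. With a 2-fold change as well, 3 were higher and 1 lower, beside 2.96% and 2.09% of all probe sets. The 3 were Phlda3 at 1.90 (3.72-fold, adjusted p = 7.43e-12 by limma), Abhd4 at 1.45 (2.73-fold, adjusted p = 5.43e-10) and Slc19a2 at 1.33 (2.51-fold, adjusted p = 3.24e-10), and the gene with the decrease was Steap3. Below 2-fold were Zmat3 at 0.89, Ak1 at 0.62, Dcxr at 0.54, Aen at 0.31, Def6 at 0.18 and Wrap53 at 0.17. This comparison shares the KO-IR arrays with KO-IR vs KO and is not independent of it.

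Without irradiation 5 of the 10 genes passed as higher and 2 as lower in KO than in WT cells, beside 21.5% and 21.7% of all probe sets. The arrays of the same 7 genes did not overlap, 5 above and 2 below, beside 24.4% and 26.6% of all probe sets. With a 2-fold change as well, 0 were higher and 1 lower, beside 2.44% and 1.98%, and the median log2 fold change was 0.17, against -0.02 over all probe sets. The higher ones were Abhd4, at 0.98 and thus 1.97-fold (adjusted p = 1.79e-08 by limma), Phlda3 at 0.82 (adjusted p = 9.62e-09), Slc19a2 at 0.42 (adjusted p = 8.41e-06), Zmat3 at 0.38 (adjusted p = 0.000125) and Ak1 at 0.21 (adjusted p = 0.0184). Abhd4 lay just under a 2-fold change, and without WT replicate 1 it was just over it, at 1.01. Ak1 did not pass when WT replicate 2 (adjusted p = 0.0852), WT replicate 3 (0.0545) or KO replicate 3 (0.0705) was left out, nor with the methods' t-test (adjusted p = 0.0978). Steap3 and Aen were the genes that were lower. Dcxr was at 0.12, with a 95% interval from -0.05 to 0.29, and passed without KO replicate 3 (0.20, adjusted p = 0.0438). Def6 was at 0.07, from -0.05 to 0.18, and Wrap53 at -0.03, from -0.12 to 0.06.

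**Figure D3:**
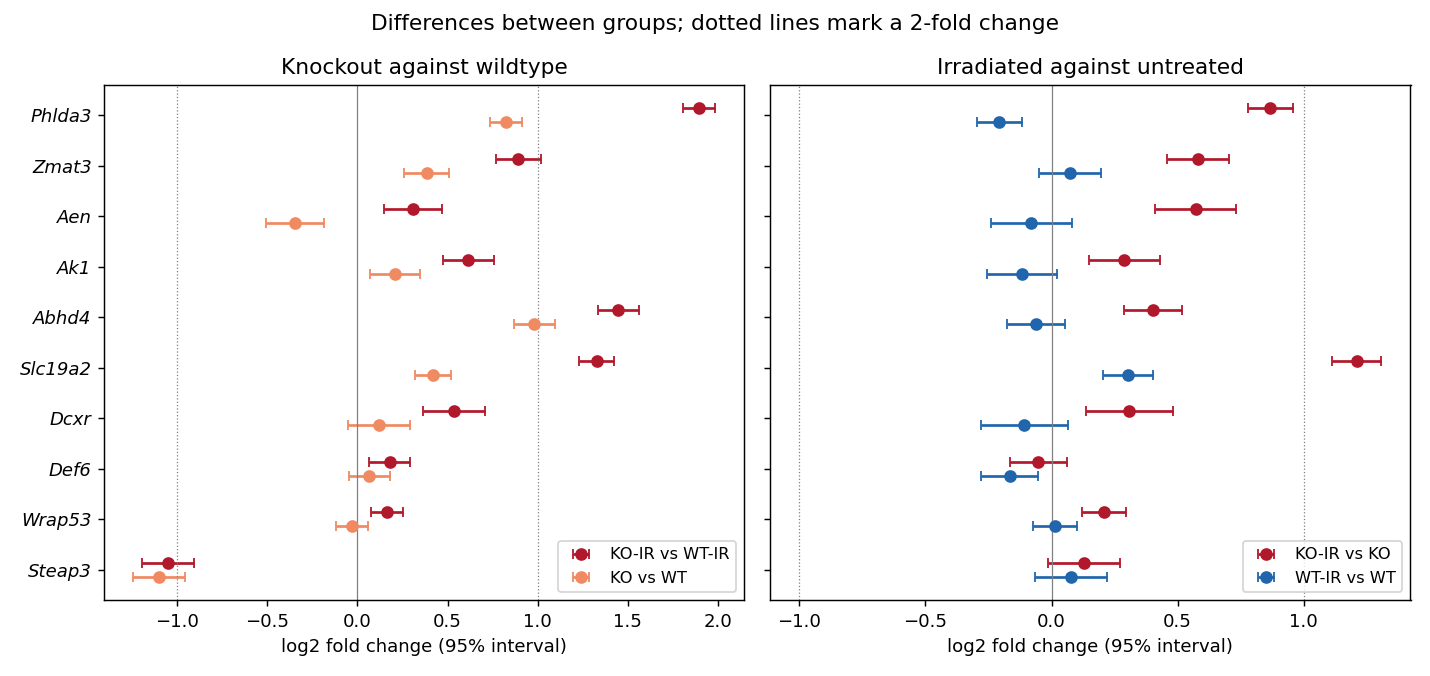
Log2 fold changes of the 10 genes with 95% intervals from limma, for KO-IR vs WT-IR and KO vs WT on the left and for KO-IR vs KO and WT-IR vs WT on the right. Dotted lines mark a 2-fold change. The interval of KO-IR vs KO lies above 0 for 8 genes, and that of WT-IR vs WT lies above 0 for Slc19a2 and below 0 for Phlda3 and Def6.

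Steap3, a ferrireductase of endosomes that handles iron taken up with transferrin, was the exception to the direction of the group. It was at -0.61, -0.60 and -0.40 in KO-IR, -0.77, -0.54 and -0.68 in KO, 0.53, 0.50 and 0.52 in WT-IR and 0.47, 0.40 and 0.44 in WT arrays. All 6 knockout arrays lay below all 6 wildtype arrays, KO-IR overlapped KO, and WT-IR lay narrowly above WT. The log2 fold change was -1.10 in KO vs WT (standard error 0.065, adjusted p = 4.37e-08 by limma), a 2.15-fold difference and rank 257 of 16755 from the bottom. It was -1.05 in KO-IR vs WT-IR (2.07-fold, adjusted p = 5.9e-08). With irradiation it changed by 0.13 in KO-IR vs KO, with an interval from -0.02 to 0.27, and by 0.08 in WT-IR vs WT, from -0.06 to 0.22, and the interaction of 0.05 had an interval from -0.15 to 0.25.

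Def6, an exchange factor for Rac that is best known in T cells, had the smallest range of the 10 together with Wrap53. Its values were 0.017, 0.024 and -0.012 in KO-IR, 0.16, 0.066 and -0.044 in KO, -0.14, -0.16 and -0.21 in WT-IR and -0.067, 0.012 and 0.044 in WT arrays. The WT-IR arrays lay below all others, while the other 3 groups overlapped. The KO-IR vs WT-IR difference of 0.18 had a standard error of 0.052 and an adjusted p of 0.0128 by limma, or 0.0505 without WT-IR replicate 3, and WT-IR vs WT was at -0.17 with an adjusted p of 0.118.

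**Figure D4:**
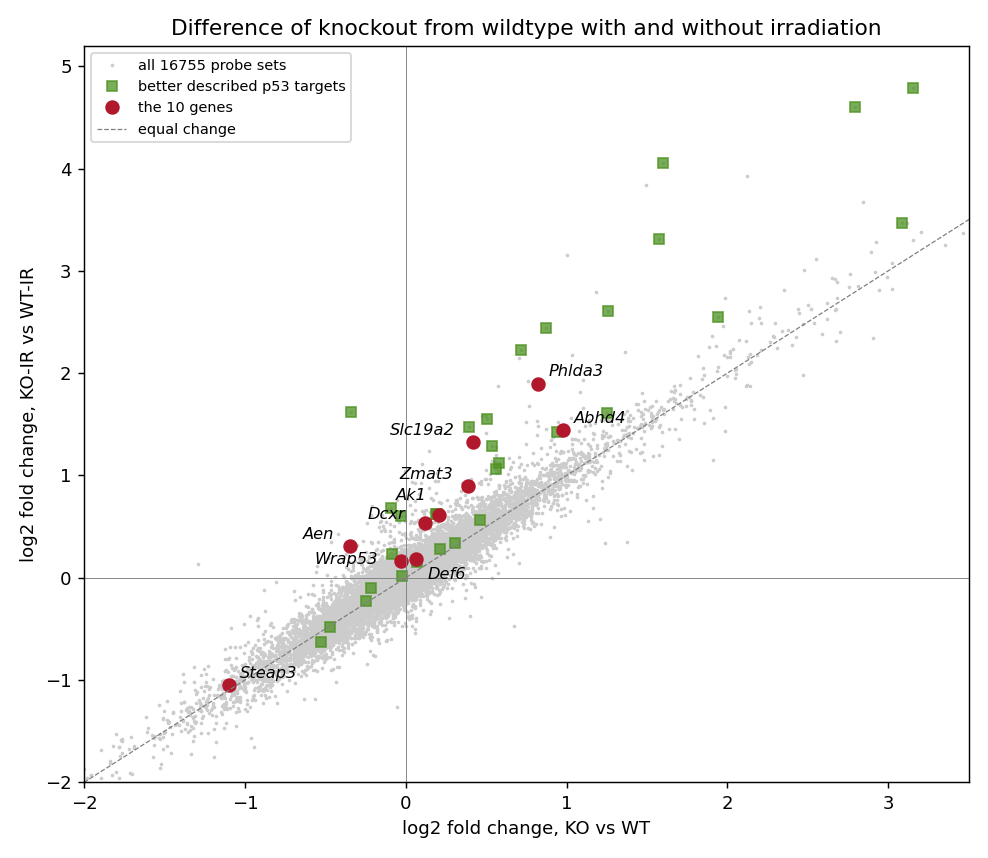
Log2 fold change of knockout against wildtype MEFs under irradiation (KO-IR vs WT-IR, y axis) and without it (KO vs WT, x axis), which share no array. Grey points are all probe sets, of which 74 lie outside the axes, green squares the better described p53 targets and red points the 10 genes. Phlda3, Slc19a2 and Aen lie furthest above the dashed line of equal difference among the 10, and Steap3 lies close to the line at the lower left.

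The group means of 4 genes, Phlda3, Abhd4, Ak1 and Dcxr, ran in the order KO-IR, KO, WT, WT-IR from high to low. WT and WT-IR overlapped for Abhd4, Ak1 and Dcxr, and KO overlapped both of them for Dcxr. For Zmat3 and Slc19a2 the order was KO-IR, KO, WT-IR, WT. Aen ran KO-IR, WT, WT-IR, KO, with WT overlapping both KO-IR and WT-IR. Wrap53 ran KO-IR, WT-IR, WT, KO, with the 3 lower groups within each other's spread apart from WT-IR and KO, whose arrays did not overlap. Def6 ran KO, KO-IR, WT, WT-IR and Steap3 WT-IR, WT, KO-IR, KO. KO-IR thus had the highest mean for 8 of the 10 genes.

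Other genes followed these profiles closely over the 12 arrays, which share genotype and treatment, so the correlations are given as a description. The closest to Phlda3 were Ercc5, a nuclease of excision repair that is itself on the list of better described targets (Pearson r = 0.992), the costimulatory ligand Cd80 (0.992) and 1700007K13Rik (0.991). Closest to Zmat3 were the drug efflux pump Abcb1b (0.992), Dennd2c (0.988) and Ddit4l (0.986), and to Slc19a2 Bet1l (0.983), Eda2r (0.981) and Cpeb2 (0.981). Abhd4 was nearest to the phosphatase Dusp1 (0.996), the receptor Notch1 (0.995) and the annexin Anxa8 (0.995), and Steap3 to the BMP effector Smad1 (0.996), Tbrg4 (0.996) and Adgrl1 (0.995). For Aen the nearest were D14Ertd436e (0.935), Trim11 (0.920) and Pltp (0.912), and for Ak1 Pdcl (0.979), Pias4 (0.964) and Repin1 (0.962). Dcxr was nearest to Ckmt1 (0.961), Tmem255a (0.960) and Wnt9a (0.959), Wrap53 to Zfp653 (0.961), Mxd1 (0.936) and Zfp385a (0.934), and Def6 to Arid3a (0.917), Vps39 (0.907) and BC055324 (0.902).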

How the data were processed

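RNA of 12 MEF samples was reduced of ribosomal RNA and hybridized to Affymetrix Mouse Exon 1.0 ST arrays. The deposited log2 values were normalized by the authors in Gene Spring GX and centred on each probe set's median over the 12 arrays (largest distance of a median from 0: 5e-07), so no filter on dim probe sets could be applied and no depth or absolute signal is known. The summarization method is not given in the sources used here.

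All 16755 probe sets entered limma 3.58.1 under R 4.3.3, with lmFit on 4 group means and eBayes. The residual degrees of freedom were 8 and those of the prior 3.48. Each contrast's p-values were given the Benjamini-Hochberg adjustment across the whole array. Calls are at an adjusted p under 0.05, with or without a fold change of at least 2. Intervals are 95% intervals of the fit. The fit was tested on simulated data. Gene symbols came from the platform annotation, in which 14996 probe sets had 1 symbol, 1019 several and 740 none, and all 10 genes matched a RefSeq gene of GRCm38.p6. Promoter sequences are from RefSeq.

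The 10 genes, the lists and the tests were chosen with earlier results of these data known. All 10 genes are described. Of the better described p53 targets the 4 with the smallest adjusted p in KO-IR vs KO and in WT-IR vs WT are named, and for each of the 10 genes the 3 of 1 symbol with the highest Pearson r. The marker genes named were chosen after their values were seen. Lists of endothelium (5 genes measured, 1 higher in KO vs WT) and skeletal muscle (5 measured, 1 higher in KO vs WT) were also tested. Alternatives were the methods' t-test, only the groups compared, the replicate number as a block and quantile normalization of the centred values. Others were arrays centred on their medians, robust eBayes, probe sets of 1 symbol, a fold threshold of 1.5 and leaving out each array. Plots and the promoter search used Python 3.11.15 (matplotlib 3.10.9).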

Additional observations from a re-analysis of the deposited data

Results flagged for a closer look

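The change with irradiation differed between knockout and wildtype MEFs by the interaction test for 5 of the 10 genes, as a log2 difference (KO-IR minus KO) minus (WT-IR minus WT). It was 1.07 for Phlda3 (adjusted p = 2.59e-06 by limma), which was higher in KO-IR than in KO and lower in WT-IR than in WT cells. It was 0.91 for Slc19a2 (adjusted p = 1.54e-05), which was higher with irradiation in both genotypes. It was 0.65 for Aen (adjusted p = 0.00825), 0.51 for Zmat3 (adjusted p = 0.00818) and 0.47 for Abhd4 (adjusted p = 0.00819), whose changes in wildtype cells did not pass the test. Groups of 3 arrays are too small for a test of single outlying arrays.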

How the results depend on the processing

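Of 32 differences of single genes that passed the adjusted p, 0 changed direction under the alternatives run, and of their 603 recomputed values 35 no longer passed. Many of these values could not turn, because several alternatives leave the log2 fold change as it was. These are the methods' t-test, only the groups compared, the replicate block, robust eBayes and probe sets of 1 symbol. Leaving out an array of a group not compared also leaves it unchanged. The methods' t-test left 2 of the 8 genes called between KO-IR and KO and 0 of the 2 between WT-IR and WT. After quantile normalization 1 gene was called between WT-IR and WT and 3 in the interaction. Of all 16755 probe sets 615 and 189 were called there, against 416 and 230 in the main fit. Of the 10 genes 0 kept a 2-fold change between KO-IR and KO (Slc19a2 at 0.96) or in the interaction (Phlda3 at 0.79). This step was applied to values already centred per probe set and gives every array the same distribution. The array SDs ran from 0.242 to 0.288 before it, so a lost call cannot be told apart from this rescaling. With a fold threshold of 1.5 in place of 2, the interaction had 3 genes, KO vs WT had 3 and KO-IR vs KO had 2. The share of all probe sets at that threshold was not counted. When each array was left out in turn, the genes called at the adjusted p numbered 5 to 6 in the interaction and 6 to 8 between KO-IR and KO. They numbered 9 to 10 between KO-IR and WT-IR, 6 to 7 between KO and WT and 1 to 2 between WT-IR and WT. Over all 16755 probe sets the calls in the same order numbered 133 to 267, 584 to 1545, 6814 to 7558, 6649 to 7484 and 128 to 668. With a 2-fold change as well 1 to 2 of the 10 genes were called between KO and WT. Differences that did not pass turned sign without single arrays. The Steap3 interaction lay between -0.02 (without KO-IR replicate 3) and 0.11, and was -0.00 without KO replicate 1. Wrap53 lay between -0.06 and 0.01 (without WT replicate 1) for KO vs WT and between -0.02 (without WT replicate 3) and 0.05 for WT-IR vs WT. Values centred per probe set give neither absolute levels nor signal over background.

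Deviations from the group means had a median correlation of 0.0016 between arrays of different groups with the same replicate number. For arrays with other numbers it was 0.0020. Of the 18 same-number pairs 3 correlated over 0.1, and the highest was at 0.2109. What samples of the same number share is not given in the labels, and these correlations cannot exclude a shared batch. With the replicate number as a block 6 of the 10 genes were called in the interaction and 7 between KO-IR and KO. Called as well were 2 between WT-IR and WT, 10 between KO-IR and WT-IR and 7 between KO and WT. Over all 16755 probe sets the calls in the same order numbered 195, 927, 286, 7376 and 7109. Dcxr lost its call between KO-IR and KO (adjusted p = 0.0703) and Ak1 gained one in the interaction (0.41, adjusted p = 0.0412).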
